A study of Homo sapiens with 12 samples.

Results

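Human mitochondrial DNA carries 13 protein-coding genes, and 6 of them lie outside complex I. These 6 mRNAs encode cytochrome c oxidase subunits (MT-CO1, MT-CO2 and MT-CO3), ATP synthase subunits (MT-ATP6 and MT-ATP8) and cytochrome b (MT-CYB). They were selected by gene name on chromosome MT and are 6 of 58735 genes in the count table. The choice was made with earlier results of these data known. All 6 passed the filter on low counts, which left 17729 genes for testing.

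The RNA-Seq experiment used HEK293T, a wild-type line from human embryonic kidney, with 3 libraries in each of 4 groups, and asked whether the compounds used to profile RNA-binding proteins alter the transcriptome. DMSO cells received vehicle. CEP cells were given AHL-Pu-1, a clickable electrophilic purine that binds proteins covalently through a chloro-purine core, for 1 h at 25 µM, and 4SU cells received 4-thiouridine, a photoreactive uridine analog, for 16 h at 100 µM, while CEP+4SU cells received both. For CEP, the series design and the study's methods give 25 µM, whereas the treatment protocol in the sample labels gives 25 mM. That protocol, UV irradiation included, is the same text for all 12 libraries, and whether cells without 4SU were irradiated is not stated separately.

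Mitochondrial mRNAs are made as long polycistronic transcripts, one from each DNA strand, and are released mainly by excision of the tRNAs between them. All but MT-ND6 then receive a short poly(A) tail, so that poly-T selection, which was used for these libraries, captures them. MT-CO1, MT-CO2 and MT-CO3 form the core of cytochrome c oxidase (complex IV), which passes electrons from cytochrome c to oxygen. MT-ATP6 and MT-ATP8 belong to the proton-conducting part of ATP synthase (complex V), and MT-CYB is the only mitochondrially encoded subunit of complex III. Since these are bulk libraries, a lower level of an mRNA in all cells and in only some of them cannot be told apart.

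On GRCh38 all 6 genes lie on the plus strand of chromosome MT, each as 1 exon without introns, and their coordinates equal those of GENCODE 29 in 6 of 6 cases. MT-CO1 (ENSG00000198804) spans 5904 to 7445 and has 1542 bases. MT-CO2 (ENSG00000198712) spans 7586 to 8269 with 684 bases, and MT-CO3 (ENSG00000198938) spans 9207 to 9990 with 784 bases. MT-ATP8 (ENSG00000228253) spans 8366 to 8572 with 207 bases, and MT-ATP6 (ENSG00000198899) spans 8527 to 9207 with 681 bases. MT-CYB (ENSG00000198727) stands apart from the other 5, at 14747 to 15887 with 1141 bases. The GC content ran from 39.6% in MT-ATP8 to 46.6% in MT-CO3, against 40.2% to 47.7% in the 7 complex I mRNAs.

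MT-ATP8 and MT-ATP6 share 46 bases in different reading frames. No tRNA lies between them, so they need not be separate RNA molecules. Each gene is counted here as an mRNA of its own. The shared bases are shown because a fragment from them belongs to both genes, which leaves 161 of the 207 bases of MT-ATP8 to that gene alone. The capitals mark the start codon of MT-ATP6 and the stop codon of MT-ATP8 (chromosome MT, 8527 to 8572, plus strand, GENCODE 29 transcripts on GRCh38).
MT-ATP8 and MT-ATP6 shared bases: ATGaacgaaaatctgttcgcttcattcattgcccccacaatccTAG
How fragments on both genes were assigned is not given in the sources used here. The level of MT-ATP8 therefore rests on a short stretch, and on 496 to 1034 counts per library.

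The last 30 bases of each gene are shown because the 6 annotated coding sequences end in different ways. The capitals mark the last annotated codon or, where no whole codon is left, the last base.
MT-CO1 (7416 to 7445): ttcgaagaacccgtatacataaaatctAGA
MT-CO2 (8240 to 8269): tttgaaatagggcccgtatttaccctaTAG
MT-CO3 (9961 to 9990): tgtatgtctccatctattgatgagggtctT
MT-ATP6 (9178 to 9207): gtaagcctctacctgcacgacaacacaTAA
MT-ATP8 (8543 to 8572): tcgcttcattcattgcccccacaatccTAG
MT-CYB (15858 to 15887): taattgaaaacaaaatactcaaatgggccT
MT-CO3 and MT-CYB end in a lone T, which the poly(A) tail completes to a stop codon. MT-ATP6 and MT-CO3 meet at 9207 with 1 shared base, which is the last base of the MT-ATP6 stop codon and the first of the MT-CO3 start codon.

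Library depth, as the sum over genes, was 16569114 to 24644734 counts, of which 0.967% to 1.65% were on chromosome MT and 0.550% to 0.902% on the 6 mRNAs. The 6 mRNAs took 0.820% ± 0.0993 (SD, n = 3) of counts in DMSO, 0.685% ± 0.119 in CEP, 0.756% ± 0.0511 in 4SU and 0.750% ± 0.0917 in CEP+4SU. CEP replicate 3 had both the lowest mitochondrial share and the lowest share of these mRNAs. The kidney line's markers PAX2, LHX1, NEFL, NEFM and LIN28B were present in all 12 libraries, with a summed level of 406 to 482 CPM (counts scaled to a common library size). Of the 5 markers of melanoma cells, a cell type also used in the study, TYR was at 0 CPM in 12 libraries, SOX10 was at most 0.469 CPM and MLANA at most 0.938 CPM. PMEL (4.51 to 10.7 CPM) and DCT (1.41 to 6.41 CPM) were present in all 12 libraries, at levels near those of PAX2 (5.24 to 9.18 CPM) and LHX1 (3.59 to 6.65 CPM), and all 5 melanoma markers summed to 8.18 to 14.2 CPM. DCT was called higher in CEP+4SU than in DMSO, by 1.23 on the log2 scale (SE 0.30, adjusted p = 0.0455 in edgeR's quasi-likelihood test), and its part in that comparison was not tested.

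Per length, these were among the most abundant mRNAs of the cells. By FPKM, which divides counts by gene length and library size, MT-CO2 ranked 1, MT-CO1 2, MT-ATP6 3 and MT-CO3 4 among all genes over the 12 libraries, MT-CYB ranked 34 and MT-ATP8 168. In DMSO, MT-CO2 stood at 2858 ± 242 FPKM (SD, n = 3), MT-CO1 at 2055 ± 201, MT-ATP6 at 1724 ± 232, MT-CO3 at 1565 ± 299, MT-CYB at 608 ± 70.9 and MT-ATP8 at 175 ± 28.6. MT-CO2 exceeded MT-CO1 in 3 of 3 DMSO libraries and their ranges did not overlap, whereas the ranges of MT-CO1 and MT-ATP6 and those of MT-ATP6 and MT-CO3 did. MT-CO3, MT-CYB and MT-ATP8 were separated without overlap. Of the ATP synthase pair, which share bases, MT-ATP6 ranked 3 and MT-ATP8 ranked 6 of the 6. Because both genes overlap and the assignment of shared fragments is not given, this gap is one of counts per length. It need not be one of mRNA level.

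The order of the means was the same in all 4 groups, but not every step held in every library. In CEP the means were 2170 ± 407 FPKM for MT-CO2, 1922 ± 358 for MT-CO1, 1301 ± 288 for MT-ATP6, 1257 ± 232 for MT-CO3, 469 ± 109 for MT-CYB and 160 ± 42.9 for MT-ATP8. MT-CO2 and MT-CO1 overlapped there and in CEP+4SU, and MT-ATP6 exceeded MT-CO3 in only 2 of 3 libraries of each of these groups. In 4SU the means ran from 2373 ± 207 FPKM for MT-CO2 and 1928 ± 110 for MT-CO1, over 1515 ± 142 for MT-ATP6 and 1404 ± 130 for MT-CO3, to 535 ± 36.7 for MT-CYB and 174 ± 14.9 for MT-ATP8. In CEP+4SU they were 2202 ± 240, 1990 ± 324, 1508 ± 204, 1497 ± 150, 512 ± 43.0 and 183 ± 29.4 FPKM, in the same order.

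**Figure D1:**
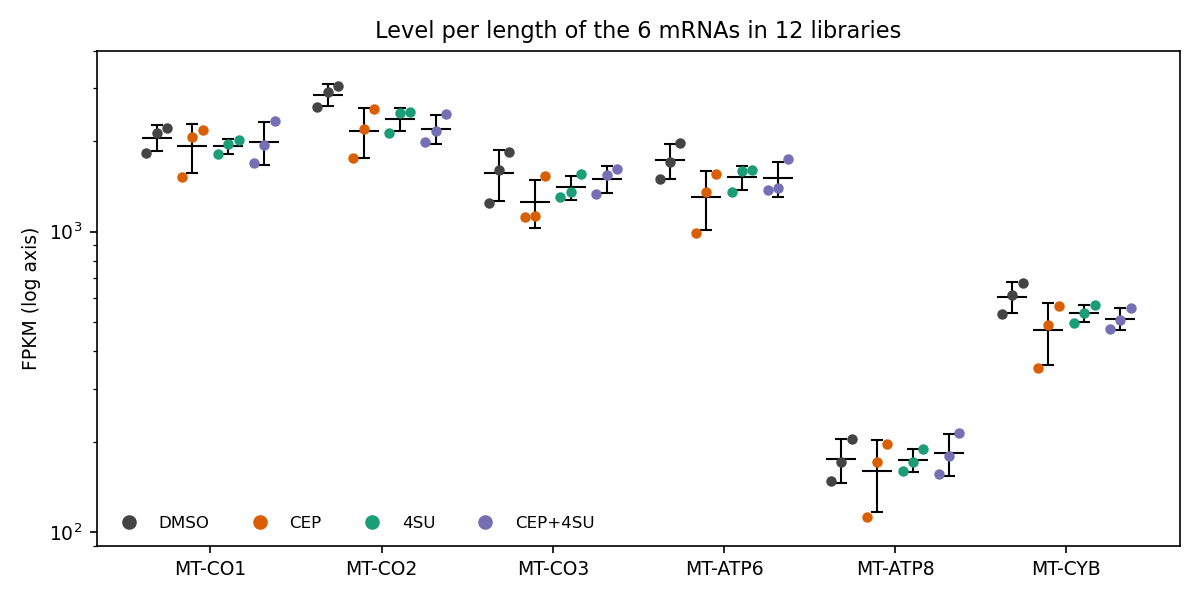
FPKM (log axis) of each of the 6 mRNAs in the 12 libraries, by group, with 1 point per library, the mean as a horizontal line and the SD as a bar. MT-CO2 has the highest mean (single libraries up to 3064 FPKM) and MT-ATP8 the lowest (down to 113 FPKM) in every group, and the groups overlap for every mRNA except MT-CO2, whose 3 DMSO libraries lie above the other 9.

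The first comparison asked what the cysteine-reactive purine does to these mRNAs. With CEP, all 6 had lower estimates than with DMSO, apart from MT-CO1 once the trend on gene length was removed (0.038 on the log2 scale) and MT-CO1 and MT-ATP8 without single libraries, and none passed the test across all genes. MT-CO2, the subunit that takes electrons from cytochrome c, was at 1781, 2007 and 2119.8 CPM in DMSO replicates 1 to 3 and at 1777, 1511 and 1209.9 CPM in CEP replicates 1 to 3 (CPM on normalized library sizes). The groups did not overlap, but DMSO replicate 1 and CEP replicate 1 were nearly equal. Its log2 fold change was -0.39 (SE 0.11, 95% interval -0.63 to -0.16), with an unadjusted p of 0.0022 and an adjusted p of 0.173 in edgeR's quasi-likelihood test with Benjamini-Hochberg adjustment.

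MT-CO1, the catalytic subunit with the oxygen-binding site, was at 2835, 3290.1 and 3454 CPM in DMSO and at 3226, 3398 and 2355 CPM in CEP. The first and second CEP libraries lay within the DMSO range and the third below it. The log2 fold change was -0.09 (95% interval -0.34 to 0.16, adjusted p = 0.697 in edgeR). MT-CO3, the third core subunit, was at 984, 1264 and 1461 CPM in DMSO and at 1211, 884 and 892 CPM in CEP. Here CEP replicates 2 and 3 were below all DMSO libraries and replicate 1 was within their range, with a log2 fold change of -0.31 (95% interval -0.58 to -0.04, adjusted p = 0.216 in edgeR).

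MT-ATP6, which forms part of the proton channel, was at 1028, 1168 and 1354 CPM in DMSO and at 1075, 928 and 681 CPM in CEP. Its log2 fold change of -0.40 (SE 0.13, 95% interval -0.68 to -0.13) was the most negative estimate of the 6 in this comparison, at an adjusted p of 0.181 in edgeR. MT-ATP8, a small subunit beside it, was at 30.7, 35.7 and 42.8 CPM in DMSO and at 41.2, 35.6 and 23.5 CPM in CEP, so that CEP replicates 1 and 2 lay inside the DMSO range and replicate 3 below it, with a log2 fold change of -0.13 (95% interval -0.47 to 0.22, adjusted p = 0.705 in edgeR). MT-CYB, the electron-carrying subunit of complex III, was at 611, 707 and 778 CPM in DMSO and at 655, 561 and 405 CPM in CEP. CEP replicate 1 overlapped the DMSO range and the other two did not, and the log2 fold change was -0.37 (95% interval -0.63 to -0.11, adjusted p = 0.187 in edgeR).

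Thus edgeR called 0 of the 6 mRNAs with CEP, where 0.0564% of the 17729 tested genes were called. At an unadjusted p under 0.05 there were 4 of the 6 (MT-CO2, MT-CO3, MT-ATP6 and MT-CYB), against 3288 of 17729 genes. DESeq2 called 1, MT-CO2 (adjusted p = 0.0393), where it called 2.63% of the genes it tested. With a replicate block, edgeR also called MT-CO2 (adjusted p = 0.0449), where it called 4.40% of the 17729 genes. MT-CO2 was also the only one whose 3 CEP libraries all lay below the 3 DMSO libraries, which held for 10.1% of tested genes. The median log2 fold change of the 6 was -0.34, beside -0.005 over all tested genes.

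CEP replicate 3 was the lowest of the 12 libraries for MT-CO1, MT-CO2, MT-ATP6, MT-ATP8 and MT-CYB. Without it, the log2 fold changes were 0.06 for MT-CO1, -0.26 for MT-CO2, -0.23 for MT-CO3, -0.24 for MT-ATP6, 0.08 for MT-ATP8 and -0.20 for MT-CYB, and edgeR called 0 of 6. Without CEP replicate 1, in which 5 of the 6 lay inside the DMSO range, edgeR called 4 of 6 (MT-CO2, MT-CO3, MT-ATP6 and MT-CYB, adjusted p = 0.0183 to 0.0329) and 1214 of 18377 genes. The count of edgeR calls in this comparison therefore depended on CEP replicate 1. With all 12 libraries kept, the count also depended on the method. DESeq2 and edgeR with a replicate block each called 1 of 6. Without the filter on low counts, edgeR called 4 of 6, where it called 1.86% of 35634 genes.

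The second comparison asked the same of 4-thiouridine, which cells incorporate into newly made RNA. With 4SU, MT-CO2 was at 1714, 1462 and 1702 CPM, below the 3 DMSO libraries, with a log2 fold change of -0.28 (SE 0.11, 95% interval -0.51 to -0.04) and an adjusted p of 0.744 in edgeR. MT-CO1 was at 3123, 2789 and 3025 CPM, and MT-CO3 at 1068, 1023 and 1217 CPM. Both overlapped DMSO, with log2 fold changes of -0.10 (95% interval -0.35 to 0.15) and -0.17 (95% interval -0.43 to 0.10).

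MT-ATP6 was at 1089, 921 and 1089.6 CPM with 4SU, and its log2 fold change was -0.20 (95% interval -0.47 to 0.08). MT-ATP8 was at 35.6, 39.3 and 33.1 CPM, inside the DMSO range in 3 of 3 libraries, with a log2 fold change of -0.02 (95% interval -0.36 to 0.33). MT-CYB was at 653, 568 and 614 CPM, with a log2 fold change of -0.19 (95% interval -0.46 to 0.07). In this group the replicates lay closer together than with CEP: the SD of MT-CO1 was 171 CPM with 4SU and 559 CPM with CEP. The estimates leaned on DMSO replicate 3, without which they were -0.03 for MT-CO1, -0.21 for MT-CO2, -0.02 for MT-CO3, -0.08 for MT-ATP6, 0.12 for MT-ATP8 and -0.10 for MT-CYB, and on DMSO replicate 1, without which they ran from -0.33 for MT-CO2 to -0.12 for MT-ATP8.

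edgeR called 0 of the 6 with 4SU, where 0.00564% of tested genes were called, and 1 of the 6 (MT-CO2) had an unadjusted p under 0.05, against 1151 of 17729 genes. DESeq2 also called 0, where it called 0.425% of the genes it tested. MT-CO2 was the only one with all 3 4SU libraries below all 3 DMSO libraries, as were 10.3% of tested genes. On library size alone these groups overlapped, with MT-CO2 at 1757 CPM in 4SU replicate 1 and 1738 CPM in DMSO replicate 1. The median of the 6 was -0.18 on the log2 scale, beside -0.007 over all tested genes.

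The third comparison set both compounds together against DMSO, and it shares the DMSO libraries with the first and second. With CEP+4SU, MT-CO2 was at 1369, 1487 and 1698 CPM, again below the 3 DMSO libraries, with a log2 fold change of -0.38 (SE 0.11, 95% interval -0.61 to -0.14) and an adjusted p of 0.0785 in edgeR. MT-CO1 was at 2623, 3025 and 3628 CPM, a spread that covers the whole DMSO range, with a log2 fold change of -0.05 (95% interval -0.29 to 0.20). MT-CO3 was at 1049, 1224 and 1277 CPM, all inside the DMSO range, with a log2 fold change of -0.06 (95% interval -0.33 to 0.20).

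MT-ATP6 was at 945, 962 and 1196 CPM with both compounds, with the first and second libraries below DMSO and the third inside its range. The log2 fold change was -0.19 (95% interval -0.47 to 0.08). MT-ATP8 was at 32.4, 44.7 and 37.4 CPM, and its estimate of 0.07 (95% interval -0.28 to 0.41) was the only one above 0 among the 6 in any comparison with DMSO, a sign that turned without DMSO replicate 1, without CEP+4SU replicate 2 and with the trend on GC content removed. MT-CYB was at 543, 582 and 642 CPM, with a log2 fold change of -0.25 (95% interval -0.51 to 0.02). Without DMSO replicate 3 the values were 0.01 for MT-CO1, -0.32 for MT-CO2, 0.07 for MT-CO3, -0.09 for MT-ATP6, 0.20 for MT-ATP8 and -0.16 for MT-CYB.

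edgeR called 0 of the 6 with CEP+4SU, where 1.64% of tested genes were called, and 1 of the 6 (MT-CO2) had an unadjusted p under 0.05, against 3792 of 17729 genes. DESeq2 called MT-CO2 (adjusted p = 0.0206), where it called 10.6% of the genes it tested. Fitted on these 6 libraries alone, edgeR also called MT-CO2 (adjusted p = 0.0279), where it called 3.36% of 16858 genes. With a replicate block, edgeR called MT-CO2 too (adjusted p = 0.0332), where it called 9.40% of the 17729 genes. MT-CO2 was once more the only one without overlap below DMSO, as were 14.6% of tested genes. The median of the 6 was -0.13 on the log2 scale, beside 5.82e-05 over all tested genes.

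**Figure D2:**
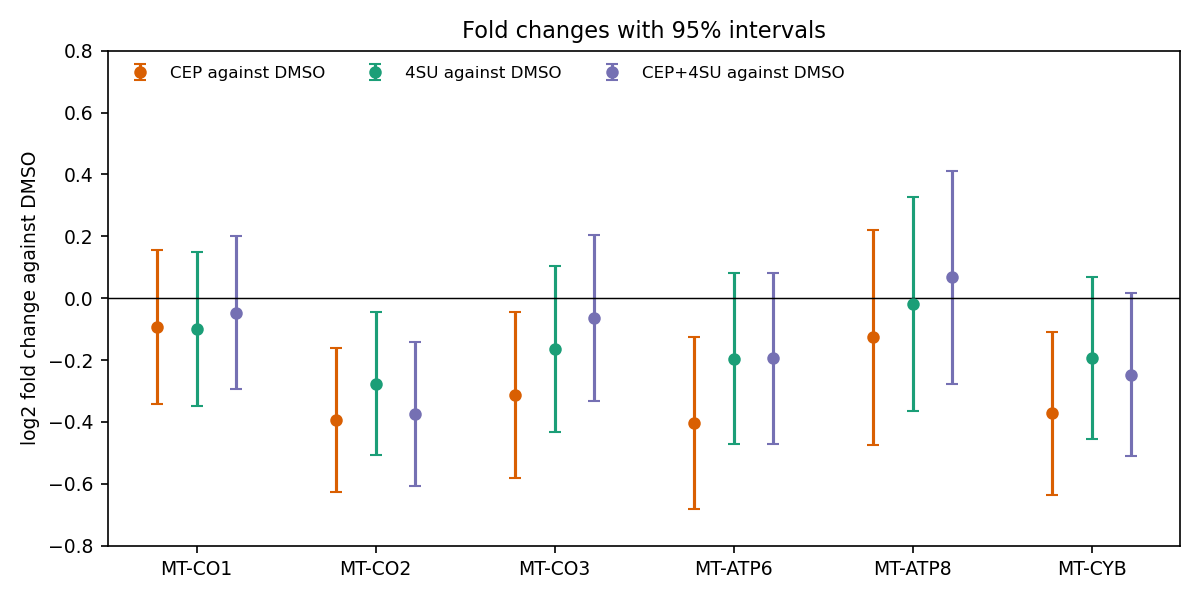
Log2 fold change of each mRNA against DMSO in edgeR's fit of all 12 libraries (points), with the 95% interval as a bar, for CEP, 4SU and CEP+4SU. The intervals of MT-CO2 lie below 0 in all 3 comparisons (-0.39, -0.28 and -0.38) and those of MT-CO1 and MT-ATP8 span 0 in all 3, and none of the 18 values passed adjustment over all genes.

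The crossed design also allowed each compound to be averaged over the other, which puts 6 libraries against 6. For CEP averaged over 4SU, the log2 fold changes were -0.02 (95% interval -0.20 to 0.16) for MT-CO1, -0.25 (-0.41 to -0.08) for MT-CO2 and -0.11 (-0.29 to 0.08) for MT-CO3. They were -0.20 (-0.40 to -0.005) for MT-ATP6, -0.02 (-0.27 to 0.22) for MT-ATP8 and -0.21 (-0.40 to -0.03) for MT-CYB. The smallest adjusted p was that of MT-CO2, 0.0884 in edgeR, so that edgeR called 0 of the 6, where 0.276% of tested genes were called.

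At an unadjusted p under 0.05 there were 3 of the 6 in this average (MT-CO2, MT-ATP6 and MT-CYB), against 4307 of 17729 genes. DESeq2 called MT-CO2 (adjusted p = 0.0259), where it called 15.6% of the genes it tested. With a replicate block, edgeR also called MT-CO2 (adjusted p = 0.0401), where it called 12.8% of the 17729 genes. For none of the 6 did all 6 CEP libraries lie below the 6 without it, which held for 0.513% of tested genes. Without CEP replicate 1, edgeR called 3 of 6 (MT-CO2, MT-ATP6 and MT-CYB, adjusted p = 0.0153 to 0.0458) and 2171 of 18377 genes.

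For 4SU averaged over CEP the estimates lay on both sides of 0, from -0.13 for MT-CO2 (95% interval -0.29 to 0.04) to 0.09 for MT-ATP8 (95% interval -0.16 to 0.33). edgeR called 0 of the 6, where 0.558% of tested genes were called, and 0 had an unadjusted p under 0.05. DESeq2 also called 0, where it called 2.60% of the genes it tested. No member of the group had all 6 4SU libraries below the 6 without it, which held for 0.863% of tested genes.

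The interaction of CEP with 4SU asks whether the CEP difference changes when 4SU is present. All 6 estimates were above 0, although without CEP replicate 3 those of MT-CO1 and MT-ATP8 were -0.012 and -0.0012. They ran from 0.15 for MT-CO1 (95% interval -0.20 to 0.50) to 0.41 for MT-CO3 (0.03 to 0.79), with 0.40 for MT-ATP6 (0.01 to 0.80), 0.29 for MT-CO2 (-0.03 to 0.62), 0.32 for MT-CYB (-0.05 to 0.69) and 0.21 for MT-ATP8 (-0.28 to 0.70). A value above 0 means that the difference between CEP and no CEP was less negative with 4SU than without. edgeR called 0 of the 6 at an adjusted p of 1.00, as it called 0% of tested genes, and 2 of the 6 (MT-CO3 and MT-ATP6) had an unadjusted p under 0.05, against 467 of 17729 genes. DESeq2 likewise called 0 of the 6 and 0% of all genes.

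On FPKM values with limma, 0 of the 6 were called in each of the 6 comparisons, where limma called 0.00564% of genes for CEP, 0% for 4SU, 0.118% for CEP+4SU, 0.107% for CEP averaged over 4SU, 0.164% for 4SU averaged over CEP and 0% for the interaction.

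The 6 mRNAs did not keep the same proportions in all libraries. The FPKM ratio of MT-CO1 to MT-CO2 was 0.706 to 0.727 in the 3 DMSO libraries, 0.805 to 0.997 with CEP, 0.788 to 0.846 with 4SU and 0.850 to 0.948 with both. All 9 treated libraries lay above all 3 DMSO libraries. The ratio of MT-CO1 to MT-CYB behaved likewise, at 3.28 to 3.44 in DMSO, 3.65 to 4.48 with CEP, 3.54 to 3.65 with 4SU and 3.58 to 4.18 with both. These were 2 of the 15 ratios among the 6 mRNAs, which share members and libraries, and they are given as a description chosen after all 15 were seen.

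For the ATP synthase pair, which share bases, the ratio also depends on how fragments on both genes were assigned, which is not given. It is therefore a ratio of counts per length and need not be one of mRNA levels. The ratio of MT-ATP6 to MT-ATP8 was 9.61 to 10.2 in DMSO and 7.93 to 8.81 with CEP, without overlap. With 4SU it was 7.13 to 10.00 and with both compounds 6.55 to 9.72, ranges that reached into that of DMSO. MT-ATP6 to MT-CYB was 2.77 to 2.92 in DMSO and 2.75 to 2.82 with CEP, which overlap. The ratio of MT-CO1 to MT-ATP6 was 1.13 to 1.24 in DMSO and 1.33 to 1.62 with CEP, without overlap, and that of MT-CO2 to MT-ATP6 was 1.56 to 1.73 in DMSO and 1.41 to 1.54 with both compounds, also without overlap. These ratios belong to the same 15 and are a description only.

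**Figure D3:**
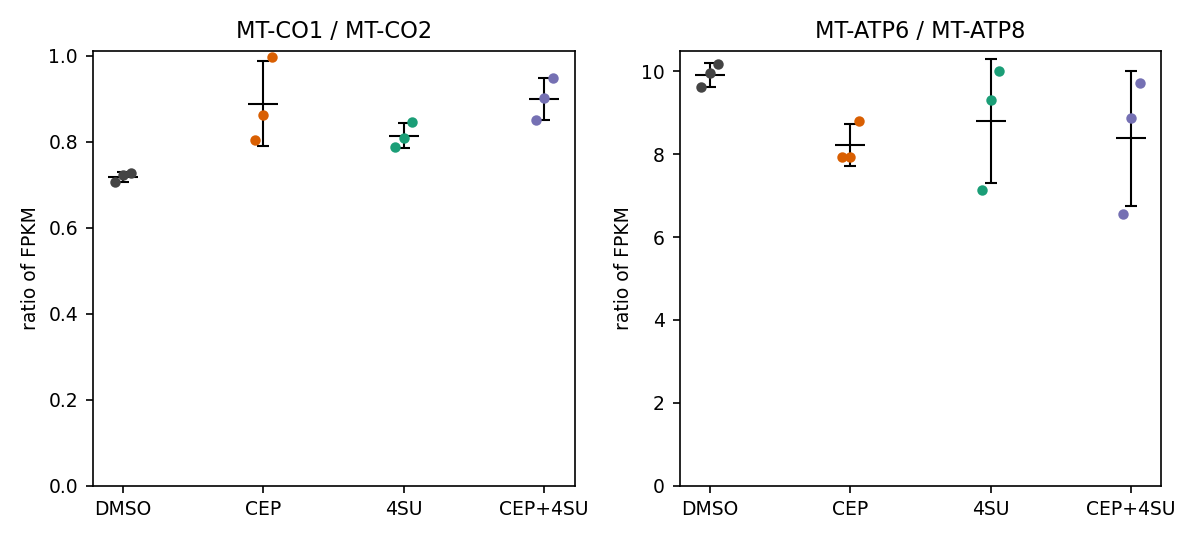
FPKM ratio of MT-CO1 to MT-CO2 (left) and of MT-ATP6 to MT-ATP8 (right) in each library, by group, with the mean as a line and the SD as a bar. In the left panel the 3 DMSO libraries (0.706 to 0.727) lie below the other 9, and in the right panel the 3 CEP libraries (7.93 to 8.81) lie below the 3 DMSO libraries (9.61 to 10.2).

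The shapes of the 6 profiles over the 12 libraries were compared in pairs. After centring each log2 CPM profile on its own mean, the root mean square difference of a pair of the 6 was 0.0557 to 0.225, with a median of 0.149 over 15 pairs. The median was 0.244 over the 21 pairs of complex I mRNAs and 0.215 over the 42 pairs of 1 of the 6 with a complex I mRNA. Still, MT-CO1 was nearer to MT-ND4 (0.0923) than to any of the 6 (MT-CYB, 0.134). MT-ATP8 was likewise nearer to MT-ND4L (0.143) than to any of the 6 (MT-CO1, 0.172). MT-CO2, MT-CO3, MT-ATP6 and MT-CYB were each nearest to another of the 6. Among 14878 genes outside chromosome MT with a mean of at least 1 CPM, the nearest profiles were those of MYO18A (0.0900), TSHZ1 (0.0903) and AKAP13 (0.0917) for MT-CO1, and TNFRSF25 (0.0887), RAI1 (0.0952) and SLC25A35 (0.103) for MT-CO2. PLEKHA4 (0.125), CSF1 (0.127) and CYB561D1 (0.127) were nearest to MT-CO3.

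For MT-ATP6 the nearest were TNFRSF25 (0.0856), RAI1 (0.115) and CARMIL2 (0.120), for MT-CYB they were RAI1 (0.1005), ZNF335 (0.105) and TNFRSF25 (0.110), and for MT-ATP8 they were LTB4R (0.129), C1QTNF6 (0.144) and SYNM (0.147). TNFRSF25 and RAI1 thus appeared for MT-CO2, MT-ATP6 and MT-CYB. The median distance to all candidates was 0.246 to 0.303 for the 6, and these distances describe 12 shared libraries only.

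The nearest comparison within the mitochondrial genome is with the 7 complex I mRNAs, which come from the same polycistronic transcripts except MT-ND6, from the opposite strand. With CEP, edgeR called MT-ND1 (-0.87, SE 0.15, adjusted p = 0.0257) and MT-ND2 (-0.88, SE 0.11, adjusted p = 0.00147) lower, and it called both lower with CEP+4SU (-0.78 and -0.82) and for CEP averaged over 4SU (-0.67 and -0.74). The other 5 complex I mRNAs were not called in any comparison, and no complex I mRNA was called with 4SU alone. Their median log2 fold change was -0.50 with CEP, -0.13 with 4SU and -0.40 with both, beside -0.34, -0.18 and -0.13 for the 6 mRNAs.

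Counted together, the 6 mRNAs made up 64.9% ± 0.633 (SD, n = 3) of all counts on the 13 mitochondrial mRNAs in DMSO and 65.1% ± 0.0091 in 4SU, but 69.2% ± 0.392 in CEP and 69.3% ± 1.44 in CEP+4SU. The 6 libraries with CEP ran from 67.9% to 70.8% and the 6 without it from 64.2% to 65.4%, so that they did not overlap. This share is a description, and the difference between the 2 sets of mRNAs was not tested. The summed level of the 6 was 7269 to 9210.2 CPM in DMSO and 5566 to 7986 CPM in CEP, which overlap, whereas that of complex I was 4049 to 4915 CPM in DMSO and 2523 to 3571 CPM in CEP, which do not.

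**Figure D4:**
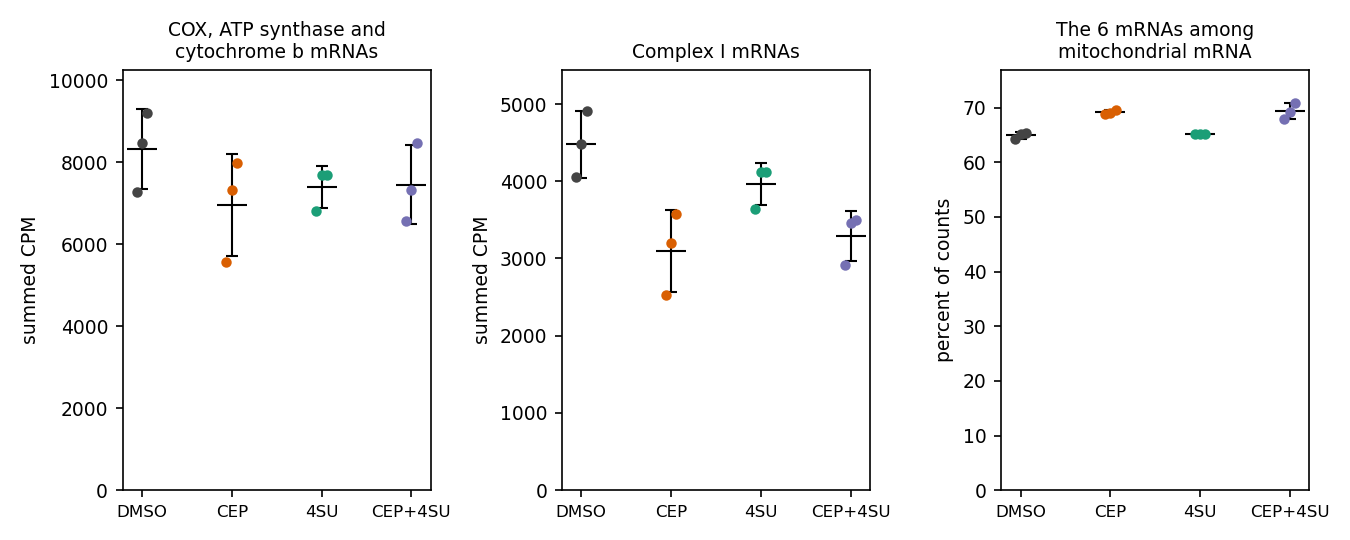
Summed CPM of the 6 mRNAs (left) and of the 7 complex I mRNAs (middle), and the percent of mitochondrial mRNA counts that the 6 make up (right), in each library by group, with the mean as a line and the SD as a bar. The left-hand groups overlap, and in the right panel the 6 libraries with CEP (67.9% to 70.8%) lie above the 6 without it (64.2% to 65.4%).

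**Figure D5:**
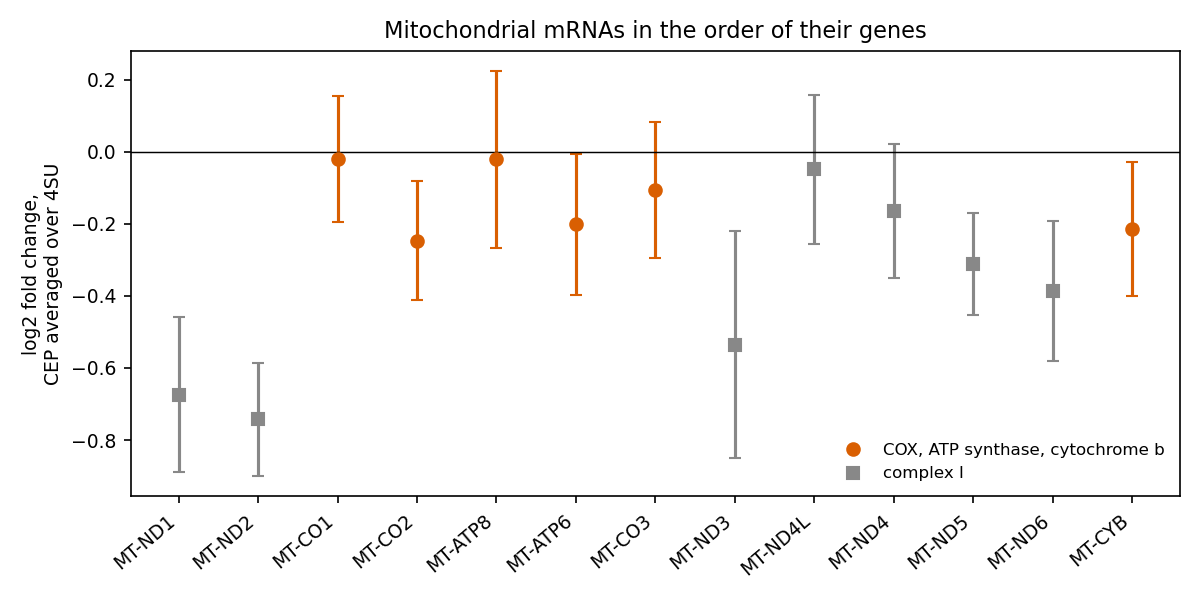
Log2 fold change for CEP averaged over 4SU (points) with its 95% interval (bars) of the 13 mitochondrial mRNAs, in the order of their genes along the genome. MT-ND1 (-0.67) and MT-ND2 (-0.74), the first 2 genes, are the only ones past the threshold, and the next gene, MT-CO1, is at -0.02.

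Read along the genome, the changes for CEP averaged over 4SU did not follow gene order smoothly. MT-CO1, directly after MT-ND2, was at -0.02 on the log2 scale, beside -0.74 for MT-ND2. MT-CO3 at -0.11 was followed by MT-ND3 at -0.53, and MT-CYB, the last gene, was at -0.21. Of the mitochondrial rRNAs, which lie before MT-ND1, MT-RNR2 was called lower with CEP (-0.48, SE 0.09, adjusted p = 0.0462 in edgeR) and for CEP averaged over 4SU (-0.35, SE 0.06, adjusted p = 0.0115). MT-RNR1 had more negative estimates with wider errors, -1.02 with CEP (SE 0.38, adjusted p = 0.196 in edgeR) and -0.54 for CEP averaged over 4SU (SE 0.27, adjusted p = 0.225), and was not called.

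Calls were few among the nuclear partners of the 6, as they were over all tested genes (0% in the interaction to 1.64% with CEP+4SU). None of the 13 tested of 18 nuclear cytochrome c oxidase subunits and none of the 18 nuclear ATP synthase subunits was called in any of the 6 comparisons. With CEP their median log2 fold changes were -0.07 and -0.09. Of 10 nuclear complex III subunits, 1 was called: CYC1, which encodes cytochrome c1 and works beside cytochrome b, was lower with CEP+4SU (-0.46, SE 0.09, adjusted p = 0.0262 in edgeR). The median of those 10 was -0.16 in that comparison.

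The factors that assemble these complexes or handle their mRNAs were not called either. This held for 25 cytochrome c oxidase assembly factors, for 10 complex III and ATP synthase assembly factors, and for 24 factors of mitochondrial transcription, processing and mRNA stability, in all 6 comparisons. With at most 1.64% of tested genes called in any comparison, 0 calls in lists of this size do not set these factors apart. Their medians with CEP were -0.02, -0.06 and 0.09 on the log2 scale, and with CEP+4SU they were -0.04, 0.004 and 0.07. The last list holds POLRMT, the mitochondrial RNA polymerase, and LRPPRC and SLIRP, which stabilize mitochondrial mRNAs.

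The nuclear genome carries 179 annotated copies of the 6 genes (45 of MT-CO1, 29 of MT-CO2, 36 of MT-CO3, 25 of MT-ATP6, 2 of MT-ATP8 and 42 of MT-CYB), which can take up or lend reads. Of these copies, 2 reached a mean of 1 CPM, MTATP6P1 (chr1:633696-634376) and MTCO1P12 (chr1:631074-632616). MTATP6P1 matches MT-ATP6 at 671 of 681 bases (98.5%), and the counts on all MT-ATP6 copies came to 3.84% to 8.07% of those on MT-ATP6. For MT-CO1 the copies came to 0.119% to 0.236%, and for the other 4 genes to at most 0.145%.

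Of the stretches of 60 bases, the first with the most differences between MT-ATP6 and MTATP6P1 is shown. The 3 bases in capitals tell the copy from the gene there (plus strand, MT-ATP6 positions 116 to 175 counted from the first base of the gene, GENCODE 29 transcripts on GRCh38).
MT-ATP6 (chromosome MT, 8642 to 8701): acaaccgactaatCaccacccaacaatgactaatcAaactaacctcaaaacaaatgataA
MTATP6P1 (chromosome 1, 633811 to 633870): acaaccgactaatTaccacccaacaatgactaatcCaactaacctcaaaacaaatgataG
MTATP6P1 stood at 52.3 ± 11.7 CPM (SD, n = 3) in DMSO, 58.0 ± 21.9 in CEP, 46.8 ± 9.10 in 4SU and 43.9 ± 4.74 in CEP+4SU, and edgeR called neither it nor MTCO1P12 in any of the 6 comparisons. No stretch of 150 bases, the read length, from MT-CO2, MT-CO3, MT-ATP6, MT-ATP8 or MT-CYB occurs unchanged in an annotated copy, whereas 14.5% of those from MT-CO1 do. With the counts of the copies added to each gene, edgeR again called 0 of the 6 in each comparison.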

How the data were processed

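Polyadenylated RNA of HEK293T cells was sequenced in 12 libraries, 3 per group, grouped by the treatment in the labels. The authors aligned reads to GRCh38 with HISAT2 2.0.5 and counted them with featureCounts 1.5.0-p3, and the deposited counts are whole numbers without normalization. The deposited FPKM values divide these counts by gene length and by an adjusted library size (0.981 to 1.03 of the total count). A table of group FPKM was not used, and 0 columns belonged to other samples. The strand setting is not given in the sources used here.

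The series design calls the replicates independent. Genes were filtered with filterByExpr (minimum count 10, minimum total 15), normalized with TMM and fitted in edgeR 4.0.16 (R 4.3.3) by quasi-likelihood with a mean per group, and Benjamini-Hochberg adjusted p-values at or under 0.05 over 17729 genes were calls. The common biological coefficient of variation was 0.114. CPM use TMM library sizes and log2 CPM a prior count of 2. DESeq2 1.42.0 and limma 3.58.1 on log2(FPKM + 1) were alternatives, with other normalizations, filters, a replicate block, added nuclear copies, trends on length or GC content removed, and libraries left out. The edgeR step was tested on simulated counts, with planted changes larger in size than any main estimate of the 6 mRNAs. That test does not show whether changes of their size would be called. The 6 genes, the 8 gene lists (114 genes) and the tests were chosen with earlier results of these data known. All 6 genes, the complex I mRNAs, list genes past the threshold, the 3 nearest profiles and nuclear copies of at least 1 CPM are named.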

Additional observations from a re-analysis of the deposited data

How the results depend on the processing

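Wherever an alternative called any of the 6 mRNAs, MT-CO2 was among them. DESeq2 called 1 of the 6 mRNAs with CEP, 1 with CEP+4SU and 1 for CEP averaged over 4SU, MT-CO2 each time. At the threshold of 0.5 named in the study's methods, DESeq2 called 4 of the 6 with CEP (beside 6900 of 15616 genes), 1 with 4SU (426 of 5606), 2 with CEP+4SU (7262 of 17616) and 3 for CEP averaged over 4SU (8189 of 20285). Without a filter on low counts, edgeR called 4, 2 and 3 of the 6 with CEP, with CEP+4SU and for CEP averaged over 4SU, beside 662, 1234 and 1448 of 35634 genes; the cause was not tested. Fitted on the 6 libraries alone, CEP+4SU gave 1 call, beside 567 of 16858 genes. Leaving out 1 library at a time gave 0 to 4 calls with CEP and 0 to 3 for CEP averaged over 4SU, above 0 only without CEP replicate 1. With a replicate block, edgeR called MT-CO2 alone of the 6, which makes 1 call with CEP (adjusted p = 0.0449, log2 fold change -0.39), 1 with CEP+4SU (0.0332, -0.38) and 1 for CEP averaged over 4SU (0.0401, -0.25), and the calls over all genes rose to 780, 1667 and 2269 of 17729. Correlations of the deviations from the group means ran from -0.25 to 0.60 over the 18 pairs of libraries with the same number, 7 of them over 0.1, so the numbers were not treated as pairing, although 9 of 12 libraries correlated best with one of their own number. Among the CEP, 4SU and CEP+4SU libraries, those numbered 1 correlated at 0.47 to 0.60 and those numbered 2 at 0.27 to 0.42. Those numbered 3 were at -0.25 to 0.085. Leaving out CEP replicate 2 and CEP+4SU replicate 2 together, chosen after the data were seen, gave 0 calls in each comparison.

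Of 834 values of single mRNAs under alternatives, 48 changed sign, none larger than 0.12 on the log2 scale and none with an adjusted p under 0.663. With the trend on length removed, MT-CO1 was at 0.038 with CEP, 0.058 with CEP+4SU and 0.076 for CEP averaged over 4SU, MT-CO3 at 0.032 with CEP+4SU and MT-ATP8 at 0.051 for CEP averaged over 4SU. MT-ATP8 with 4SU was at 0.010 under upper-quartile normalization, 0.038 on library size alone and 0.0014 in limma, and with CEP+4SU at -0.096 with the GC trend removed (chosen after the data were seen) and -0.058 without the libraries of replicate 2 named above. For 4SU averaged over CEP, MT-CO1 and MT-CYB were at 0.017 and 0.010 on library size alone, MT-ATP6 at -0.0074 with nuclear copies added, and MT-CO1 and MT-CO3 at 0.037 and -0.0044 without those libraries. Leaving out 1 library moved MT-CO1 from -0.19 to 0.059 with CEP, -0.19 to 0.047 with CEP+4SU, -0.10 to 0.053 for CEP averaged over 4SU, -0.097 to 0.030 for 4SU averaged over CEP and -0.012 to 0.24 in the interaction. MT-ATP8 moved from -0.29 to 0.081, -0.12 to 0.12 and -0.058 to 0.20 in the comparisons of CEP, 4SU and CEP+4SU with DMSO, -0.11 to 0.081 for CEP averaged over 4SU, -0.0093 to 0.18 for 4SU averaged over CEP and -0.0012 to 0.37 in the interaction. MT-CO3 moved from -0.20 to 0.075 with CEP+4SU, and for 4SU averaged over CEP MT-CO3, MT-ATP6 and MT-CYB moved from -0.025 to 0.12, -0.071 to 0.083 and -0.12 to 0.047. Depth limits MT-ATP8 most, at 496 to 1034 counts per library.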
